A study of Sus scrofa with 9 samples.

Results

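The step from the bell stage to the late bell stage of the first permanent molar was described by setting the 3 arrays labelled E70 (embryonic day 70) against the 3 arrays labelled E60. These are 6 of the 9 arrays of the series, and the 3 arrays of the cap stage (E50) were left out of the fit. All samples were additional molar germs with the attached dental lamina, taken from the mandibles of Wuzhishan miniature pig fetuses and not treated. The study places the first molar at E60 at the bell stage (early bell in its methods), with the second molar germ starting behind it. At E70 it places the first molar at the late bell stage and describes little change in the second molar. The array was the Affymetrix Porcine Genome Array, which gives 1 fluorescence signal for each probe set, a group of short probes for 1 transcript. According to the study's methods, germs of the same stage and litter were pooled. The labels call the arrays biological replicates but do not say whether they stand for separate litters, so p-values measure only the spread between these arrays.

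Additional molars replace no milk tooth and bud from the back end of the dental lamina. In the bell stage the inner enamel epithelium folds into the shape of the crown over the dental papilla, and in the late bell stage papilla cells turn into odontoblasts, which secrete dentin, and epithelial cells into ameloblasts, which secrete enamel matrix. The germ lies in a follicle of loose mesenchyme inside a growing bony crypt, whose wall is laid down by osteoblasts and cleared by osteoclasts.

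Among the genes called lower at E70 were 5 of 15 measured bone genes, 5 of 16 osteoclast genes, 7 of 29 genes of follicle and mesenchyme, 6 of 37 of macrophages and other immune cells and 4 of 38 of skeletal muscle. Among those called higher were 3 of 13 epithelial genes, KRT8, EPCAM and CDH1, the enamel matrix gene AMELX and the growth factor BMP4. Of 23999 probe sets tested, 420 (1.75%) were called at adjusted p under 0.05 by limma, 186 higher at E70 (0.775%) and 234 lower (0.975%). With each of 6765 named genes taken by its brightest probe set, 130 genes (1.92%) were called, 50 higher (0.739%) and 80 lower (1.18%). All 3 arrays of E70 lay above all 3 of E60 in 18.4% of genes and below them in 15.7%, and the median difference of all genes was 0.05 on the log2 scale. When each array was centred on its own median, 119 probe sets were called higher and 246 lower. Of the 130 genes, 11 kept their call when each array was left out in turn, and these were IBSP, C1QTNF3, ASPN, MGP, FABP4, PTGFR, ACP5, SCRG1, THBS2, SPP1 and DPT. A further 30 kept it in some of the 6 fits, and 89 lost it whichever array was left out, with adjusted p up to 0.18.

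Of 7 control measures, 5 did not overlap between the stages. The poly-A spike-ins, RNAs that the array protocol adds to the sample before labelling, averaged 1367 to 1392 over the E60 arrays and 597 to 614 over the E70 arrays. The 28S rRNA signal was 11220 to 12410 at E60 and 5010 to 5732 at E70, and the 3' to 5' ratio of GAPDH, which grows as RNA is shortened, was 6.98 to 9.24 at E60 and 4.36 to 6.47 on the E70 arrays. The hybridisation spike-ins (4150 to 4268 at E60, 3086 to 3938 on the E70 arrays) and the 3' to 5' ratio of actin (30.1 to 34.9 at E60, 22.9 to 26.3 on the E70 arrays) did not overlap either. In an exact two-sided permutation test of the stage labels these 5 had the smallest p that 3 against 3 arrays can give, 0.1 (0.14 adjusted over 7 measures). The EF1A ratio (1.42 to 1.56 at E60, 1.35 to 1.47 on the E70 arrays) and the background controls (4.59 to 10.6 at E60, 5.97 to 10.6 at E70) overlapped, with exact p of 0.2 and 0.7 in the same permutation test. The background of an array was taken as the 95th percentile of its 23 background control probe sets, a signal of 37.6 to 55.5. EIF1AY, a gene of the Y chromosome, gave 1310, 1270 and 1296 at E60 and 34.9, 1.00 and 1.41 at E70, where all arrays were below background, so it was at least 27.7-fold lower (adjusted p = 0.0629, not called). The labels give no sex, and the part of these measures in the differences below was not tested. In RNA of whole germs, fewer cells of a type and less RNA per cell cannot be told apart.

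**Figure D1:**
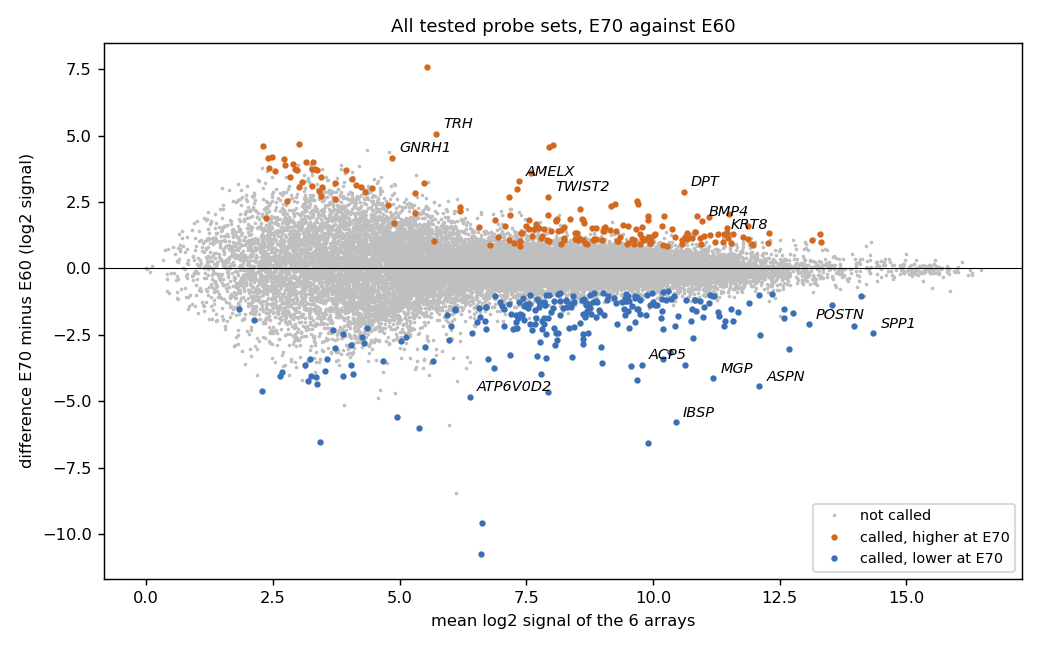
Difference E70 minus E60 (log2 signal, vertical axis) against the mean log2 signal of the 6 arrays (horizontal axis) for the 23999 probe sets, with the 186 called higher in orange, the 234 called lower in blue and 14 genes named. Called probe sets lie on both sides of 0, and IBSP at -5.79 is the lowest of the genes named in it.

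Of the bone genes, 5 were lower at E70 and none was higher. IBSP, which encodes bone sialoprotein, a matrix protein of mineralising bone, gave signals of 9837, 10896 and 10485 at E60 and 146, 222 and 206 at E70. The stages did not overlap, and the gene was 55.1-fold lower at E70 (log2 difference -5.79, SE 0.20, adjusted p = 0.00314), the largest fall among named genes that were above background on all 6 arrays. SPP1, which encodes osteopontin, a phosphoprotein of bone matrix that osteoclasts attach to, gave 51313, 46034 and 48424 at E60 and 9054, 9406 and 8461 at E70. That is 5.41-fold lower at E70 (log2 difference -2.44, SE 0.13, adjusted p = 0.00575). BGLAP, the gene of osteocalcin, which osteoblasts make late in their maturation, gave 261, 282 and 310 at E60 and 81.0, 54.9 and 55.6 at E70, just above background (log2 difference -2.18, SE 0.21, adjusted p = 0.019). COL1A2, a chain of type I collagen, gave 1395, 1355 and 1041 at E60 and 512, 411 and 346 at E70 (log2 difference -1.59, SE 0.22, adjusted p = 0.0437). ENPP1, which makes the mineral inhibitor pyrophosphate, gave 1244, 1182 and 1106 at E60 and 598, 528 and 521 at E70 (log2 difference -1.10, SE 0.14, adjusted p = 0.0361). BGLAP lost its call in 5 of the 6 fits with 1 array left out (adjusted p up to 0.0858), and COL1A2 and ENPP1 lost theirs in all 6 (up to 0.15 and 0.14).

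Not every gene of the bone list had a lower signal at E70. Of its 15 measured genes 5 were called, all lower, and the median difference was -0.77 beside 0.05 for all genes. In 8 of the 15 (53.3%) all E70 arrays lay below all E60 arrays, beside 15.7% of all genes. In 3 (20%) they lay above, beside 18.4% of all genes. Those 3 included ALPL, the phosphatase that frees phosphate for mineral, with 690, 807 and 621 at E60 and 1779, 1255 and 1502 at E70 (log2 difference 1.09, adjusted p = 0.0738, not called), and DLX5, a homeobox factor of osteoblasts and of dental papilla, with 3335, 3620 and 3576 at E60 and 5965, 7699 and 8543 at E70 (1.06, adjusted p = 0.0654, not called). SPARC, a collagen-binding glycoprotein of bone and dentin, gave 57200, 60805 and 60962 at E60 and 40510, 33931 and 33459 at E70 (-0.73, adjusted p = 0.0847, not called). The osteoblast transcription factor SP7 was near background, with 86.2, 87.5 and 10.5 at E60 and 21.1, 31.6 and 21.6 at E70. The summed signal of the list was 136375 to 138679 at E60 and 61523 to 66483 at E70, and SPARC and SPP1 made up most of it.

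Osteoclast genes showed the most negative median of the cell type lists, -1.002 over 16 measured genes, with 5 called lower and none higher. ACP5, the tartrate-resistant acid phosphatase by which osteoclasts are stained, gave 2947, 3002 and 3266 at E60 and 245, 238 and 269 at E70. It was 12.3-fold lower (log2 difference -3.62, SE 0.13, adjusted p = 0.00314). ATP6V0D2, a subunit of the proton pump that osteoclasts carry on their bone-facing membrane, gave 429, 435 and 468 at E60. Its 3 E70 signals of 28, 9.34 and 14.9 were below background, so the gene was at least 9.53-fold lower (adjusted p = 0.0167). CKB, the brain-type creatine kinase, which osteoclasts use to supply that pump with ATP, gave 400, 451 and 461 at E60 and 90.2, 93.3 and 80.1 at E70 (log2 difference -2.31, adjusted p = 0.00678). ITGB3, the integrin chain with which osteoclasts hold on to osteopontin and bone sialoprotein, gave 490, 404 and 560 at E60 and 93.2, 144 and 104 at E70 (-2.11, adjusted p = 0.0281). SNX10, a sorting protein needed for the ruffled border, gave 548, 592 and 635 at E60 and 247, 280 and 272 at E70 (-1.15, adjusted p = 0.0329).

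Of the 16 osteoclast genes, 10 (62.5%) had all E70 arrays below all E60 arrays, beside 15.7% of all genes. None had them above, beside 18.4% of all genes. CTSK, cathepsin K, the protease that digests bone collagen, gave 11249, 9689 and 11428 at E60 and 4526, 1927 and 3573 at E70. Its log2 difference of -1.77 (SE 0.34) missed the threshold with adjusted p = 0.0842. Of the proton pump subunits that most cells use, ATP6V1A (-1.33) and ATP6V1B2 (-0.83, and 0.20 on a second probe set above background) had the larger differences, beside -0.41 for ATP6V1C1, -0.23 for ATP6V1D, -0.21 for ATP6V1E1 and 0.12 for ATP6V0C, none called. MMP9, a gelatinase of osteoclasts, was between 9.93 and 91.8 at E60 and between 7.60 and 83.6 at E70, with no direction (0.00, adjusted p = 0.999). ACP5 kept its call without any 1 array. CKB lost it only without E60 replicate 2 (adjusted p = 0.052), ATP6V0D2 lost it in 4 of 6 such fits (up to 0.0784), and ITGB3 and SNX10 in all 6 (up to 0.116 and 0.125). The summed signal of the 16 genes was 25270 to 27414 at E60 and 11677 to 14827 at E70. Of this sum CTSK, not called, gave 9689 to 11428 at E60 and 1927 to 4526 at E70.

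**Figure D2:**
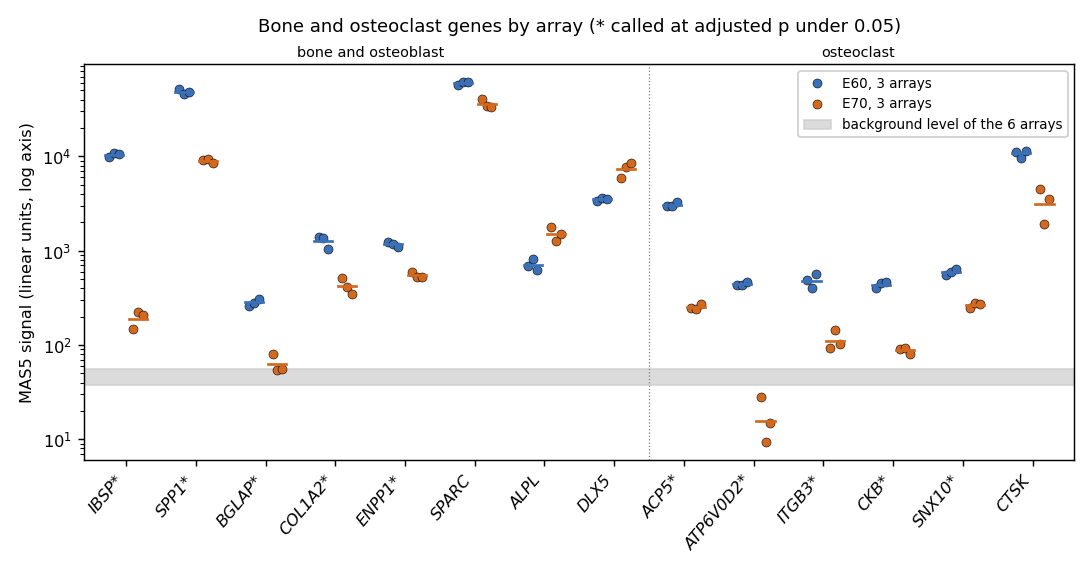
MAS5 signal (log axis) of 8 bone and 6 osteoclast genes on the 3 E60 arrays (blue) and the 3 E70 arrays (orange), with the geometric mean as a bar, the range of the background level as a grey band and called genes starred. IBSP drops from about 10397 to 189, ATP6V0D2 falls below the band, and ALPL and DLX5 lie higher at E70 without being called.

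Among enamel genes, AMELX rose and no other was called. AMELX encodes amelogenin, the main protein of enamel matrix, and gave 78.5, 29.4 and 62.1 at E60, where 2 of 3 arrays were above background, and 400, 615 and 537 at E70. It was 9.73-fold higher at E70 (log2 difference 3.28, SE 0.42, adjusted p = 0.0377), and without any 1 array the adjusted p missed the threshold (up to 0.126). AMBN, the gene of ameloblastin, the enamel protein that holds ameloblasts to the matrix, gave 24.0, 57.4 and 7.38 at E60 and 117, 154 and 102 at E70. The stages did not overlap, yet the E60 arrays spread so widely that the difference of 2.50 (SE 0.76) was not called (adjusted p = 0.182). KLK4, the protease of maturing enamel, reached 105 on E70 replicate 1, and its other 5 signals were 14.0 to 26.8 (1.12, adjusted p = 0.454). ENAM (enamelin) gave 46.4, 47.1 and 39.8 at E60 and 35.4, 54.3 and 20.3 at E70, and MMP20, the protease of the secretory stage, gave 72.1, 47.1 and 74.4 at E60 and 53.9, 45.4 and 52.0 at E70. Neither was called (adjusted p = 0.63 and 0.49). TUFT1 (tuftelin) was above background on all 6 arrays, with 44.2, 60.4 and 62.5 at E60 and 81.6, 63.7 and 70.3 at E70, without overlap and not called (0.38, adjusted p = 0.382). COL17A1, a hemidesmosome collagen, was also above background on all 6 and overlapped between the stages (0.44, adjusted p = 0.499), and ACPT was below background on all 6 (-0.77). Of 8 measured ameloblast genes 1 was called, with a median of 0.41.

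Dentin genes were hardly detected. DSPP, whose product is cut into the main proteins of dentin other than collagen, gave 1.05, 24.4 and 70 at E60 and 40.7, 27.4 and 24.3 at E70, all but 1 of them below background (1.31, SE 1.59, adjusted p = 0.698). DMP1, a phosphoprotein of dentin and of osteocytes, gave 7.06, 8.31 and 33.6 at E60 and 48.4, 41.8 and 67.4 at E70. On this probe set the E70 arrays lay above the E60 arrays, and the difference of 2.04 (SE 0.65) was not called (adjusted p = 0.196). A second DMP1 probe set had the other sign, with 62.2, 94.8 and 17.4 at E60 and 13.2, 1.81 and 33.6 at E70 (-2.33, adjusted p = 0.382). PHEX, an endopeptidase of odontoblasts and osteoblasts, was between 9.21 and 40.8 over all arrays (-0.20, adjusted p = 0.917). The 4 measured odontoblast genes included COL1A2, given above, as the only called one, and the list's median of 0.56 turned to -0.58 without E60 replicate 1 and to -0.24 with the mean of all probe sets of a gene.

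Among epithelial genes 1 keratin and 2 adhesion genes rose. Of 13 measured genes of dental epithelium and keratinocytes 3 were called higher and none lower, and the median was 0.87. All E70 arrays lay above all E60 arrays in 9 (69.2%), beside 18.4% of all genes, and below in none, beside 15.7%. KRT8, a keratin of simple epithelia, gave 1822, 1585 and 1780 at E60 and 3930, 4290 and 4374 at E70, which is 2.43-fold higher (log2 difference 1.28, SE 0.14, adjusted p = 0.0258). EPCAM, an adhesion molecule of epithelial cells, gave 1131, 977 and 1056 at E60 and 2475, 2420 and 2239 at E70 (1.17, SE 0.13, adjusted p = 0.0299). CDH1, which encodes E-cadherin, the main protein of epithelial cell contacts, gave 1138, 1026 and 1168 at E60 and 2484, 2563 and 2174 at E70 (1.11, SE 0.14, adjusted p = 0.0382). These 3 genes thus stood about as far apart between the stages as one another, with folds of 2.43, 2.26 and 2.17. Each lost its call without any 1 array (adjusted p up to 0.108, 0.12 and 0.139), and a dimmer second probe set of KRT8 differed by 0.49 (adjusted p = 0.453). TRIM29, a gene of stratified epithelia that the list did not hold, gave 171, 169 and 186 at E60 and 496, 506 and 555 at E70 (1.57, adjusted p = 0.0158).

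Desmosome and tight junction genes had values on the same side without passing the test. DSP (desmoplakin) gave 1923, 1438 and 1536 at E60 and 4588, 2988 and 3916 at E70 (1.22, adjusted p = 0.0757). PERP, a desmosome protein, gave 5648, 7196 and 6260 at E60 and 12497, 15787 and 12420 at E70 (1.09, adjusted p = 0.0579), and CLDN7, a claudin, 99.0, 115 and 102 at E60 and 188, 193 and 192 at E70 (0.87, adjusted p = 0.0513). The summed signal of the 13 genes was 14114 to 14621 at E60 and 28650 to 31731 on the E70 arrays. The list of oral mucosa and gland, tissue that a dissected germ could carry, had a median of -0.13. Of its 17 measured genes 1 was called, S100A9, and it was lower, with 459, 571 and 463 at E60 and 94.2, 118 and 98.0 at E70 (-2.26, adjusted p = 0.0121). Of the 17 differences 7 were above 0 and 10 below, among them KRT19 at 0.74 and S100A8 at -1.48. S100A9 thus does not stand for the list as a whole.

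**Figure D3:**
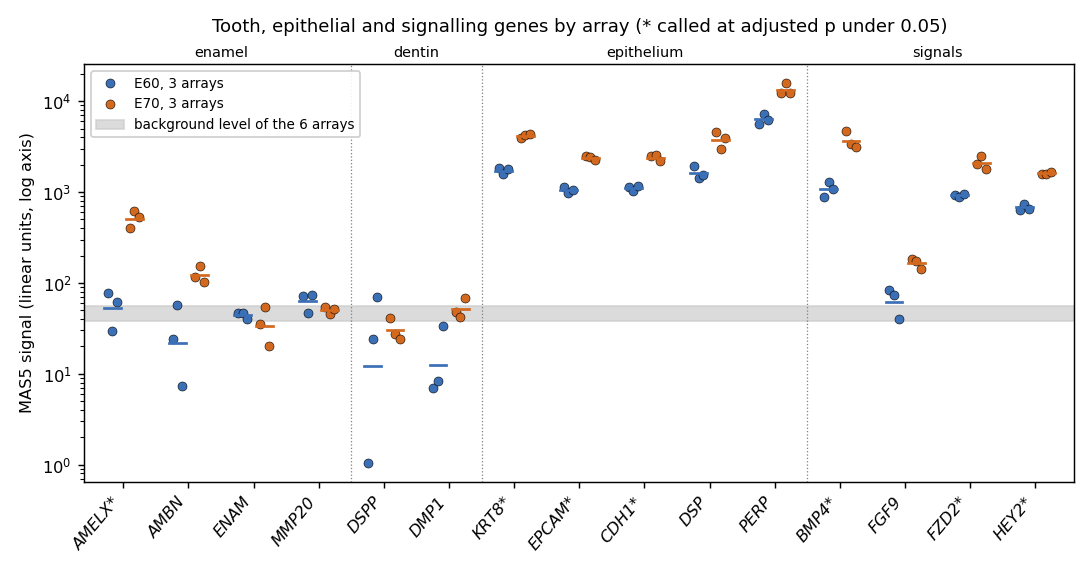
MAS5 signal (log axis) of 4 enamel, 2 dentin, 5 epithelial and 4 signalling genes on the 3 E60 arrays (blue) and the 3 E70 arrays (orange), with the geometric mean as a bar, the background range in grey and called genes starred. AMELX lies near the background at E60 and well above it at E70, while ENAM, MMP20 and DSPP remain in or near it. KRT8, EPCAM and CDH1 shift by close to the same distance.

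BMP4 was the 1 called gene among the 5 measured here of those the study stained or probed in tissue sections. BMP4 is a secreted growth factor that passes between epithelium and mesenchyme of the germ, and it gave 882, 1292 and 1083 at E60 and 4749, 3417 and 3120 at E70. It was 3.45-fold higher at E70 (log2 difference 1.79, SE 0.24, adjusted p = 0.0419), and lost its call without any 1 array (adjusted p up to 0.141). GLI1, the transcription factor that responds to hedgehog signals, gave 457, 637 and 307 at E60 and 639, 923 and 823 at E70 (0.81, SE 0.32, adjusted p = 0.26). CTNNB1, which encodes beta-catenin, gave 20161, 23216 and 20270 at E60 and 17115, 20954 and 18255 at E70, with overlap (-0.18, SE 0.15, adjusted p = 0.574). WNT10B was below background on all 6 arrays, and TCF4 was between 38.2 and 48.8 at E60 and between 11.8 and 59.8 at E70, at the background level. The symbol TCF4 has also been used for TCF7L2, whose difference was 0.01. The study chose these genes with its own array data in view, so they are no independent evidence of a direction. Over the 5 genes the median of 0.81 became -0.18 without E60 replicate 1. RT-qPCR primers were also made for MSX1, given below, and for DKK2, a WNT inhibitor, and TGFB2, a TGF-beta ligand. On the arrays DKK2 differed by -0.14 and TGFB2 by 0.16 (adjusted p = 0.686 and 0.787). Dimmer probe sets of these 2 genes had the other sign, 0.77 for DKK2 and -1.08 to -0.08 for TGFB2, none called.

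Other genes of the bud, cap and enamel knot did not pass the test. FGF9, an epithelial growth factor, gave 82.8, 73.1 and 40.3 at E60 and 186, 175 and 141 at E70 (1.41, adjusted p = 0.109), and LEF1, a partner of beta-catenin in the nucleus, 4453, 4369 and 5033 at E60 and 7030, 6067 and 6399 at E70 (0.49, adjusted p = 0.165). MSX1, a homeobox gene of dental mesenchyme that acts with BMP4, gave 1407, 1357 and 1510 at E60 and 764, 1299 and 963 at E70 (-0.53, SE 0.23, adjusted p = 0.293). BMP4 and MSX1 thus had differences of opposite sign, of which only that of BMP4 was called. Over the 10 measured genes of this list the median was 0.70, with 1 called, BMP4.

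Of the TGF-beta and BMP pathway 31 genes were measured and BMP4 alone was called. In 10 of the 31 (32.3%) all E70 arrays lay above all E60 arrays, beside 18.4% of all genes. In 3 (9.68%) they lay below, beside 15.7% of all genes. ID1, a gene that BMP signals switch on in many cells, gave 5175, 4638 and 4588 at E60 and 12123, 8414 and 10175 at E70 (1.08, adjusted p = 0.065, not called), and SMAD3, which carries TGF-beta signals to the nucleus, was 1.11 higher with adjusted p = 0.187. The list's median was 0.16.

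The WNT list had 1 call in each direction among 18 measured genes, both in receptors. FZD2 gave 921, 875 and 961 at E60 and 2029, 2517 and 1782 at E70 (log2 difference 1.19, SE 0.18, adjusted p = 0.049). FZD5 gave 680, 785 and 773 at E60 and 108, 195 and 203 at E70, which is 4.58-fold lower (-2.19, SE 0.28, adjusted p = 0.0393). The 2 frizzled receptors thus moved apart, while FZD4 (-0.15) and FZD6 (0.13) were not called. DKK1, a secreted WNT inhibitor, gave 346, 280 and 336 at E60 and 722, 1043 and 1581 at E70 (1.73, adjusted p = 0.0754). Without any 1 array FZD2 lost its call (up to 0.169), and FZD5 lost it in 5 of 6 fits (up to 0.136). Among 14 Notch genes HEY2, a transcription factor that Notch signals induce, was called. It gave 643, 738 and 656 at E60 and 1565, 1602 and 1662.4 at E70 (1.25, SE 0.13, adjusted p = 0.0254, and up to 0.113 without 1 array). A dimmer second probe set, above background on all 6 arrays, was 1.18 higher and not called (adjusted p = 0.0707). No gene was called among 23 of the FGF and MAP kinase pathway (median 0.08), 5 of hedgehog signalling (0.29), 6 of EDA and NF-kB signalling (0.31) or 11 insulin-like growth factors and binding proteins (-0.02), each read from its brightest probe set. A dimmer probe set of IGF1, with 116, 127 and 111 at E60, was called lower and lay near or below background at E70 (adjusted p = 0.0425).

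Genes of the follicle and mesenchyme had the most calls of the lists, 7 lower and 1 higher among 29 measured genes. ASPN, which encodes asporin, a small proteoglycan of periodontal ligament and follicle that slows collagen mineralisation, gave 19694, 20490 and 21059 at E60 and 883, 924 and 1025 at E70. That is 21.7-fold lower at E70 (log2 difference -4.44, SE 0.13, adjusted p = 0.00304). THBS2, a matrix glycoprotein, gave 4375, 4514 and 4334 at E60 and 828, 682 and 645 at E70, 6.17-fold lower (-2.63, adjusted p = 0.00619). POSTN, the gene of periostin, a follicle and ligament protein that binds collagen, gave 17023, 19035 and 17693 at E60 and 3391, 4868 and 4353 at E70 (-2.11, SE 0.18, adjusted p = 0.0167). LOX, the enzyme that cross-links collagen and elastin, gave 4292, 4650 and 4346 at E60 and 1505, 1350 and 1370 at E70 (-1.65, adjusted p = 0.0132). The remaining 3 were S100A4 (-1.44), LUM, the collagen-binding proteoglycan lumican (-1.38), and BGN, biglycan, whose signals of 1723, 1604 and 1688 against 930, 948 and 942 made the smallest called fall of the group (-0.83, adjusted p = 0.0479). ASPN and THBS2 kept their calls without any 1 array, POSTN kept it in 2 such fits and LOX in 1 (adjusted p up to 0.0788 and 0.0731), and S100A4, LUM and BGN kept it in none (up to 0.18). A dimmer second probe set of POSTN differed by -0.91 (adjusted p = 0.182).

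The other direction was taken by a few genes of matrix and mesenchyme. DPT, which encodes dermatopontin, a small protein that binds decorin and collagen, gave 571, 565 and 585 at E60 and 4160, 4251 and 4352 at E70. It was 7.41-fold higher (log2 difference 2.89, SE 0.12, adjusted p = 0.00326), and was the 1 higher gene that kept its call without any 1 array. MFAP5, a protein of microfibrils, gave 255, 243 and 295 at E60 and 1073, 1551 and 1657 at E70 (2.41, SE 0.22, adjusted p = 0.0167). HAPLN1, the link protein that fixes proteoglycans to hyaluronan, gave 988, 816 and 1011 at E60 and 4826, 3207 and 3269 at E70 (1.98, adjusted p = 0.0281). HAS3, a hyaluronan synthase, gave 1430, 2075 and 1554 at E60 and 5261, 4809 and 4169 at E70 (1.51, adjusted p = 0.0415). TWIST2, a transcription factor of dermal and skeletal mesenchyme, gave 104, 123.4 and 69.3 at E60 and 640, 555 and 688 at E70 (2.70, SE 0.26, adjusted p = 0.0189). MFAP5 and TWIST2 kept the call in 1 fit with an array left out and HAPLN1 and HAS3 in none (adjusted p up to 0.145 for HAS3 and 0.111 for HAPLN1).

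Within the list of mesenchyme and follicle, 15 of 29 genes (51.7%) had all E70 arrays below all E60 arrays, beside 15.7% of all genes. In 5 (17.2%) they lay above, beside 18.4% of all genes, and the median was -0.61. Uncalled collagen and proteoglycan genes lay on both sides. COL5A1 gave 2538, 2399 and 2905 against 1413, 1087 and 1167 (-1.10, adjusted p = 0.0523) and DCN, decorin, differed by -0.71 (adjusted p = 0.109), while COL6A2 (0.46) and COL6A3 (0.25) were above 0 and COL3A1 (-0.17) and the proteoglycan VCAN (-0.07) close to it. FBLN1, a matrix protein of basement membranes and elastic fibres, gave 2366, 2680 and 2498 against 5604, 4406 and 4945 (0.98, adjusted p = 0.0536). Of the uncalled members 2 had a dimmer probe set that was called higher, MDK by 0.96 (adjusted p = 0.0379) and SFRP1 by 0.99 (adjusted p = 0.0493). The summed signal of the 29 genes was 232170 to 240511 at E60 and 156363 to 204528 at E70.

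Several of the largest falls were genes outside that list. MGP, matrix Gla protein, which inhibits mineralisation of cartilage and vessel wall, gave 9070, 10068 and 9954 at E60 and 472, 554 and 663 at E70, 17.4-fold lower (-4.12, SE 0.17, adjusted p = 0.00326). PTGFR, the receptor of prostaglandin F2-alpha, gave 3053, 2553 and 2522 at E60 and 167, 258 and 219 at E70 (-3.67, SE 0.21, adjusted p = 0.00619). C1QTNF3, a secreted protein of growing cartilage and fat, gave 1218, 1173 and 1299 at E60 and 41.2, 38.8 and 71.3 at E70, with 2 of 3 E70 arrays above background (-4.66, adjusted p = 0.00619). SCRG1, a gene of mesenchymal stem cells and cartilage, gave 380, 347 and 317 at E60 and 40.5, 26.2 and 34.3 at E70, all below background, so it was at least 7.45-fold lower (adjusted p = 0.00678). FIBIN, a secreted protein of embryonic mesenchyme, gave 1049, 947 and 953 at E60 and 187, 126 and 161 at E70 (-2.65, adjusted p = 0.0108, and up to 0.0635 without 1 array). The first 4 of these kept their calls whichever array was left out.

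**Figure D4:**
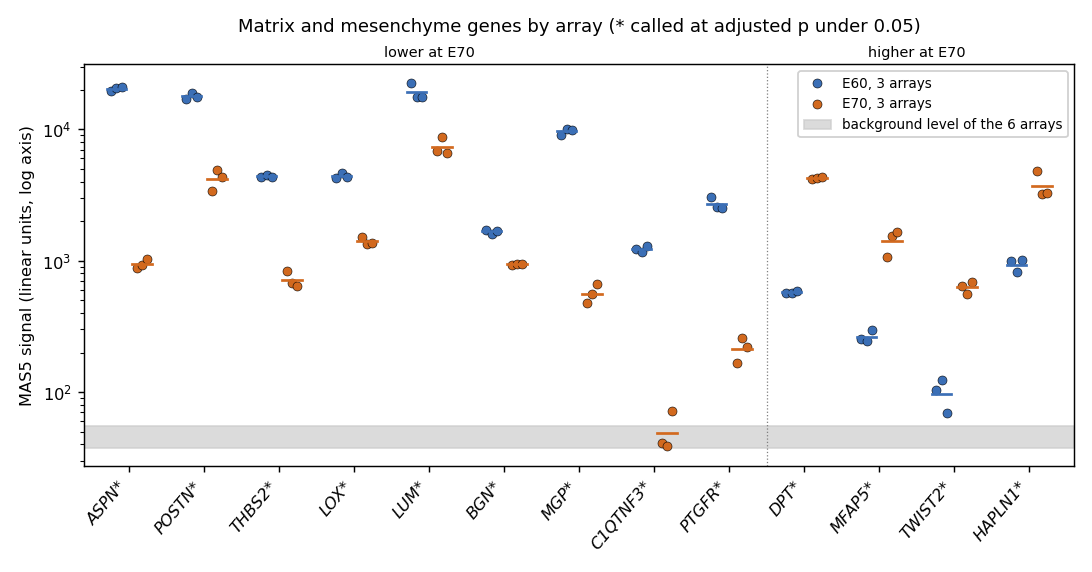
MAS5 signal (log axis) of 13 called matrix and mesenchyme genes on the 3 E60 arrays (blue) and the 3 E70 arrays (orange), with the geometric mean as a bar and the background range in grey. Of these, 9 genes lie lower at E70, from ASPN at 21.7-fold to BGN at 1.78-fold, and 4 lie higher, with DPT showing the least spread between its arrays.

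Proteases and their inhibitors had 2 calls among 24 measured genes, both lower, where 1.18% of all genes were called lower. In 9 of the 24 (37.5%) all E70 arrays lay below all E60 arrays, beside 15.7% of all genes. In 2 (8.33%) they lay above, beside 18.4% of all genes. SERPINE2, an inhibitor of thrombin and plasminogen activators, gave 1628, 1511 and 1623 at E60 and 746, 731 and 548 at E70 (-1.25, adjusted p = 0.0444). SERPINF1, a collagen-binding serpin whose loss causes brittle bones, gave 7076, 6825 and 7956 at E60 and 3620, 3931 and 3524 at E70 (-0.98, adjusted p = 0.0447). Both lost their calls without any 1 array (adjusted p up to 0.161). MMP13, the collagenase of bone and hypertrophic cartilage, gave 427, 501 and 541 at E60 and 2.31, 7.96 and 30.0 at E70, all below background. It was at least 10.5-fold lower, and since the E70 values below background scattered widely it was not called (adjusted p = 0.0554). The calcium, phosphate and proton transport list had 2 called genes of 24, both lower, ENPP1 and STC1. All E70 arrays lay below all E60 arrays in 6 of these 24 genes (25%) and above them in 6 (25%). STC1, stanniocalcin, a hormone that regulates phosphate and calcium, gave 289, 295 and 321 at E60 and 85.4, 101 and 88.4 at E70 (-1.72, adjusted p = 0.0149, and up to 0.0749 without 1 array).

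Of 37 measured genes of macrophages and other immune cells, 6 were lower at E70 and none higher, with a median of -0.55. MRC1, the mannose receptor of tissue macrophages, gave 414, 407 and 363 at E60 and 101, 109 and 116 at E70 (-1.86, adjusted p = 0.0117). C1QC, a chain of complement C1q made by macrophages, gave 307, 277 and 359 at E60 and 92.5, 99.1 and 91.0 at E70 (-1.73, adjusted p = 0.0167). CD53, a tetraspanin of leukocytes, gave 331, 425 and 283 at E60 and 71.6, 99.1 and 104 at E70 (-1.92, adjusted p = 0.0361), and CTSS, cathepsin S, 1652, 1601 and 1538 at E60 and 512, 730 and 611 at E70 (-1.39, adjusted p = 0.0375). LAPTM5 (-1.37) and the chemokine CCL2 (-1.34) were called as well. In 15 of the 37 genes (40.5%) all E70 arrays lay below all E60 arrays, beside 15.7% of all genes. In 2 (5.41%) they lay above, beside 18.4%, and 5 genes were below background on all 6 arrays. The summed signal moved less than the called genes, from 16552 to 17447 at E60 to 14300 to 15403 at E70. MRC1 kept its call in 2 of the fits with 1 array left out and the other 5 in none (adjusted p up to 0.141 for CTSS). Osteoclasts and macrophages share a precursor, and some genes of this list are expressed in both.

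Vessel genes had 3 calls among 22, all lower, where 1.18% of all genes were called lower. In 10 of the 22 (45.5%) all E70 arrays lay below all E60 arrays, beside 15.7% of all genes. In 3 (13.6%) they lay above, beside 18.4% of all genes. LYVE1, a hyaluronan receptor of lymph vessels and some macrophages, gave 262, 222 and 325 at E60 and 78.2, 77.0 and 91.0 at E70 (-1.70, adjusted p = 0.0296). ACTA2, the smooth muscle actin of pericytes and vessel wall, gave 3540, 2845 and 3378 at E60 and 943, 1059 and 1176 at E70 (-1.62, adjusted p = 0.0231), and TEK, the angiopoietin receptor, 478, 422 and 418 at E60 and 178, 216 and 168 at E70 (-1.24, adjusted p = 0.0395). PECAM1, a junction protein of all endothelium, gave 1522, 1579 and 1422 at E60 and 844, 765 and 863 at E70 and was just outside the threshold (-0.87, adjusted p = 0.0514), whereas TAGLN, another smooth muscle gene, gave 568, 603 and 668 at E60 and 1333, 1131 and 1114 at E70 (0.96, adjusted p = 0.0542). The median of the list was -0.48, its summed signal was 17379 to 18826 at E60 and 12160 to 12872 at E70, and none of the 3 calls held without any 1 array (adjusted p up to 0.142).

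Contractile genes of skeletal muscle, which lies next to the mandible, had 4 calls among 38, all lower, and a median of -0.92. ACTC1, an actin of heart and fetal skeletal muscle, gave 728, 640 and 732 at E60 and 80.3, 117 and 140 at E70 (-2.67, SE 0.24, adjusted p = 0.0167). MYLPF, a fast myosin light chain, gave 617, 504 and 553 at E60 and 117, 98.8 and 87.3 at E70 (-2.47, adjusted p = 0.0108), MYL1 was lower by a log2 difference of -2.42 and TNNC2 by -1.75. MYLPF lost its call without any 1 E60 array (adjusted p up to 0.0557), MYL1 kept it in 2 fits, ACTC1 in 1 and TNNC2 in none (up to 0.0858). In that list 4 genes were below background on all 6 arrays. All E70 arrays lay below all E60 arrays in 17 of 38 (44.7%), beside 15.7% of all genes. In 2 (5.26%) they lay above, beside 18.4% of all genes. TTN (titin), with 71.4, 139 and 77.0 at E60, and TNNC1, with 110, 192 and 151, were below background on every E70 array, at least 1.96-fold and 3.16-fold lower and not called (adjusted p = 0.0885 and 0.0613). The list's summed signal overlapped between the stages, with 10723 to 11078 at E60 and 8063 to 11215 at E70.

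Cartilage genes gave no common direction. ACAN, which encodes aggrecan, the large proteoglycan of cartilage, gave 526, 356 and 461 at E60 and 121, 88.8 and 134 at E70 (-1.97, adjusted p = 0.0353), while HAPLN1, the link protein given above, was higher. A second ACAN probe set, below background on all 6 arrays, differed by 1.04 (adjusted p = 0.306). COL2A1, the collagen that defines cartilage, gave 176, 198 and 130 at E60 and 143, 55.4 and 213 at E70, with overlap (-0.47, adjusted p = 0.674), and SOX9 also overlapped (0.62, adjusted p = 0.758). With 9 genes measured the median was -0.47. The summed signal was 1810 to 2115 at E60 and 3795 to 5326 at E70, where HAPLN1 made up most of it.

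Of the fat cell list FABP4, a fatty acid binding protein of fat cells, macrophages and capillary endothelium, was the 1 called gene. It gave 823, 848 and 950 at E60 and 50.3, 49.6 and 69.3 at E70, 15.7-fold lower (-3.97, SE 0.19, adjusted p = 0.00496), with 2 of 3 E70 arrays above background and the call kept without any 1 array. LPL, lipoprotein lipase, gave 237, 226 and 331 at E60 and 116, 83.6 and 89.2 at E70 (-1.45, adjusted p = 0.0552). ADIPOQ, the defining hormone of fat cells, was below background on all 6 arrays, and the list's median over 7 genes was 0.35. In the red cell list HBM, an alpha-like globin, gave 406, 449 and 471 at E60 and 127, 144 and 97.4 at E70 (-1.87, adjusted p = 0.0242, and up to 0.0995 without 1 array). HBB gave 2596, 2091 and 2291 at E60 and 3621, 2310 and 3994 at E70, with overlap (0.48, adjusted p = 0.379), so the summed red cell signal of 6751 to 7199 and 6790 to 7934 overlapped too. No gene was called among 14 of nerve and Schwann cells (median 0.27).

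Genes that cells switch on within minutes of a stimulus, including the handling of tissue, had 2 calls among 26, both lower. Of all genes 1.18% were called lower. In 12 of the 26 (46.2%) all E70 arrays lay below all E60 arrays, beside 15.7% of all genes. In 4 (15.4%) they lay above, beside 18.4% of all genes. FOS gave 4595, 2488 and 4863 at E60 and 375, 301 and 429 at E70, 10.5-fold lower (-3.39, SE 0.32, adjusted p = 0.0186). EGR1 gave 1074, 816 and 1056 at E60 and 398, 396 and 382 at E70 (-1.31, SE 0.16, adjusted p = 0.0361). FOS is also needed for osteoclasts to form. FOS kept the call in 1 fit with an array left out and EGR1 in none (adjusted p up to 0.0858 and 0.131). Of the others JUN (-0.28) and ATF3 (0.65) had values of opposite sign and were not called, and the median was -0.26. Over the 26 genes 16 differences were below 0 and 10 above.

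Among genes that every cell uses few were called. There was no call among 66 cytosolic ribosomal proteins (median -0.08), 60 genes of oxidative phosphorylation (-0.13), 40 of the proteasome (-0.03), 12 of the hypoxia response (-0.03), 16 common reference genes (0.08) or 68 of the cell cycle and DNA replication (0.21), each gene read from its brightest probe set. Dimmer probe sets above background on all 6 arrays were called for 2 reference genes. One of GAPDH gave 6455, 6216 and 6065 at E60 and 15030, 11540 and 12850 at E70 (1.06, adjusted p = 0.0471) and another differed by 1.11 (adjusted p = 0.0396), whereas the brightest differed by 0.09. For B2M one gave 9466, 10960 and 10850 at E60 and 4205, 3167 and 3518 at E70 (-1.53, adjusted p = 0.028) and another differed by -1.19 (adjusted p = 0.0393), whereas the brightest differed by 0.04. In 24 of the 68 cell cycle genes, or 35.3%, all E70 arrays lay above all E60 arrays, beside 18.4% of all genes. In 4 (5.88%) they lay below, beside 15.7% of all genes. Of 72 genes of the endoplasmic reticulum and secretion, OST4, a small subunit of the enzyme that attaches sugar chains, was called, with 828, 967 and 850 at E60 and 209, 315 and 233 at E70 (-1.82, adjusted p = 0.0281). In 28 of the 72, or 38.9%, all E70 arrays lay below all E60 arrays, beside 15.7% of all genes. In 9 (12.5%) they lay above, beside 18.4% of all genes. Of 18 glycolysis genes GPI, the second enzyme of the pathway, was called, with 2220, 1910 and 2286 at E60 and 4378, 3928 and 4229 at E70 (0.97, adjusted p = 0.0483). In 9 of the 18 (50%) all E70 arrays lay above all E60 arrays, beside 18.4% of all genes, and in none below, beside 15.7%. OST4 lost its call in 5 of the fits with 1 array left out and GPI in all 6 (adjusted p up to 0.111 and 0.164).

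**Figure D5:**
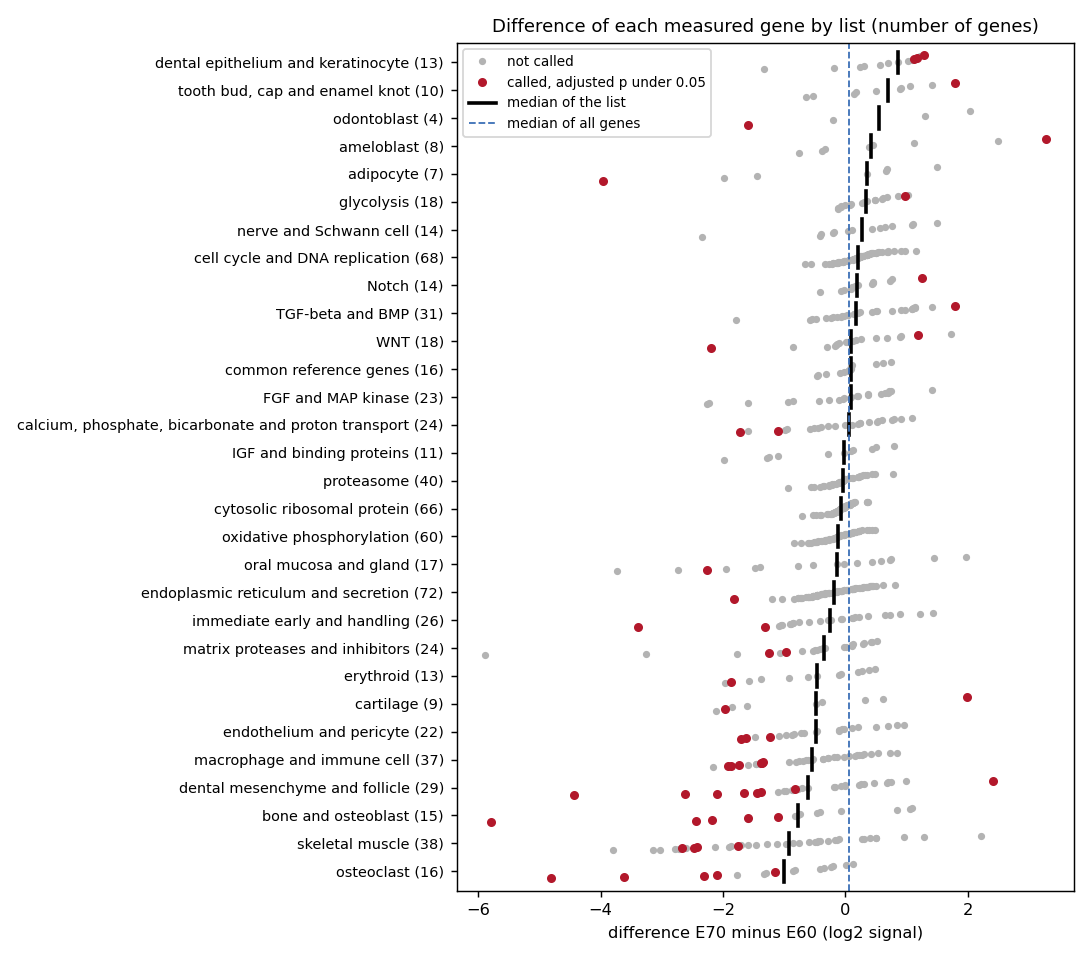
Difference E70 minus E60 (log2 signal) of each measured gene in 30 gene lists, with the number of genes in brackets, called genes in red, the median of a list as a black bar and the median of all genes, 0.05, as a dashed line. Lists run from dental epithelium at a median of 0.87 to osteoclast at -1.002, and lists of genes that every cell uses lie close to the dashed line.

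Genes outside the lists were called as well. SCIN, an actin-severing protein, gave 80.8, 57.9 and 79.8 at E60 and 210, 329 and 346 at E70 (2.00, adjusted p = 0.0415). HSD11B2, the enzyme that inactivates cortisol, gave 174, 263 and 200 at E60 and 849, 649 and 744 at E70 (1.83, adjusted p = 0.0314). TMEM221, a membrane protein, gave 59.9, 67.0 and 62.2 at E60 and 217, 270 and 183 at E70 (1.81, adjusted p = 0.0244). LYPD6, a membrane protein that acts on WNT receptors, gave 156, 159 and 127 at E60 and 463, 575 and 487 at E70 (1.79, adjusted p = 0.0189). NFIC, a transcription factor needed for root formation and odontoblast maturation in mice, gave 1499, 1381 and 1400 at E60 and 2777, 2839 and 2550 at E70 (0.93, SE 0.13, adjusted p = 0.044). SATB1, a chromatin organiser, gave 513, 480 and 564 at E60 and 1343, 1841 and 1409 at E70 (1.55, adjusted p = 0.0308). None of these 6 calls held without any 1 array (adjusted p up to 0.154 for NFIC). Among the falls, CXCL12, a chemokine of mesenchyme, gave 4312, 3783 and 3442 at E60 and 1162, 935 and 1121 at E70 (-1.84, adjusted p = 0.0167), and ALDH1A1, which makes retinoic acid, gave 370, 419 and 400 at E60 and 85.8, 114 and 80.4 at E70 (-2.10, adjusted p = 0.0167). CXCL12 lost its call without any 1 array and ALDH1A1 in 5 of 6 such fits (adjusted p up to 0.0836 and 0.0768). Dimmer second probe sets differed by -0.865 for CXCL12 (adjusted p = 0.0572) and -0.58 for ALDH1A1 (adjusted p = 0.462). That of NFIC differed by 0.57 (adjusted p = 0.392), and none of these was called.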

How the data were processed

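The authors hybridised total RNA to the Affymetrix Porcine Genome Array and computed 1 signal intensity per probe set with MAS5, per the labels without a version. The deposited table gives these intensities on a linear scale. On every array the mean with 2% of probe sets trimmed at each end was 500.1, so all arrays had been scaled to 1 target. Such scaling removes differences in total RNA between germs. Groups came from the sample labels.

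Values under 1 were set to 1 (853 values) and log2 was taken. Of 24123 probe sets 124 array controls were set aside. Of the other 23999, 10069 had 1 gene symbol in the platform's table, 198 several and 13732 none, and 9961 were matched through their Entrez number to the pig RefSeq gene table. Each gene was read from the brightest of its probe sets by mean log2 signal, and 2261 of 6765 genes had several. Array medians were 164.5 to 183.6, and 72.8% to 78.2% of probe sets lay above background. With 3 arrays a stage, precision rests on that number. Between arrays r was 0.902 to 0.914 within E60, 0.901 to 0.921 within E70 and 0.878 to 0.908 between the stages.

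E70 minus E60 was fitted on the 6 arrays with limma 3.58.1 in R 4.3.3 (lmFit and eBayes, prior degrees of freedom 1.37), with Benjamini-Hochberg adjustment over all 23999 probe sets. Differences are on the log2 scale of the floored signal. For a gene below background on all arrays of 1 stage and above it on all arrays of the other, "at least N-fold" divides the geometric mean signal of the stage above background by the geometric mean background of the other. On simulated data 200 of 23999 probe sets were changed, drawn from those with a mean log2 signal above the median. The fit recovered 0% when the fold was 2, 71.5% when it was 4 and 97% when it was 8, without a false call. The simulated arrays held no stage difference beyond those 200 probe sets. In the data 18.8% of probe sets had an unadjusted limma p under 0.05, and falls from 0.83 on the log2 scale were called. These shares and the lack of false calls therefore do not carry over to the data. Recovery of dimmer probe sets was not simulated. Tables and figures used Python 3.11.15, NumPy 2.4.6, pandas 2.3.3 and Matplotlib 3.10.9.

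Members, gene lists and tests were chosen with earlier results of these data known, so no list is independent support. Named were, among called genes, the 10 largest differences in each direction above background on all arrays, the 6 largest bounds in each direction, up to 4 members of each list in each direction, and every measured gene of the ameloblast and odontoblast lists and of those the study stained or probed in sections. Chosen after their values were seen were ALDH1A1, ALPL, C1QTNF3, COL5A1, CTSK, CXCL12, DCN, DKK1, DKK2, DLX5, DSP, EIF1AY, FBLN1, FGF9, GAL, HAS3, HBB, ID1, LPL, MMP9, MMP13, MSX1, NFIC, PECAM1, PERP, SATB1, SERPINA1, SNAP91, SPARC, TAGLN, TGFB2, TNNC1, TTN and the other uncalled or further called genes given by value. Alternatives were quantile normalization, median centring, an offset of 16, a filter on low values, a variance trend with robust prior, all 9 arrays in the fit, the mean of a gene's probe sets, a replicate block, and leaving out each array.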

Additional observations from a re-analysis of the deposited data

How the results depend on the processing

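All 420 called probe sets kept their direction under each alternative in which they were tested. Part of this was fixed in advance. All 9 arrays in the fit and the replicate block leave the difference of the stage means itself unchanged. None of the 130 called genes overlapped between the stages, so leaving out 1 array could not turn their direction. The number called was 101 with all 9 arrays in the fit (20 higher, 81 lower), 414 with quantile normalization (168 and 246), 365 with median centring (119 and 246), 726 with log2(signal + 16) (323 and 403), 1401 of 17121 probe sets after the filter on low values (730 and 671) and 1951 with a variance trend and robust prior (1010 and 941). These settings called 98, 385, 346, 412, 349 and 383 of the 420. With 1 array left out, 50 to 106 were called (12 to 28 higher, 31 to 78 lower). Replicate numbers are shared between the stages in the labels, but deviations of same-numbered arrays from their stage means correlated at 0.006, 0.026 and -0.021, beside -0.036 to 0.031 for the others, so the numbers were not taken as pairs. With the replicate block limma called 0 probe sets, 0 higher and 0 lower (lowest adjusted p = 0.159), and 3675 (15.3%) had an unadjusted p under 0.05, beside 4510 (18.8%) without the block. Of 63 called genes that the naming rule gave, 30 lost their call with 9 arrays, 13 with the mean of all probe sets of a gene, 4 with median centring, 3 with quantile normalization and 2 with the variance trend. The median of the odontoblast list turned to -1.59 and that of the adipocyte list to -0.55 after the filter, that of the cartilage list to 0.32, and with 1 array left out the medians of the odontoblast list ran from -0.58 to 1.32 and those of the genes the study stained or probed from -0.18 to 1.04, the lowest of each without E60 replicate 1. The filter left only COL1A2 of the odontoblast list, since DSPP, DMP1 and PHEX had mean signals under the background level. The value of -1.59 is thus the difference of COL1A2. For the other shifts the cause was not tested. The median difference of all genes was 0.02 with quantile normalization and -0.01 with median centring. Signal over background limits low genes: 31 of the 420 probe sets were below background on all 6 arrays, and the called differences started at 0.85 for rises and 0.83 for falls.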

Other observations

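Genes of peptide hormones and carrier proteins were among those that lay below background on all E60 arrays and above it on all E70 arrays. TRH, the gene of thyrotropin-releasing hormone, gave 24.5, 3.22 and 9.48 at E60 and 340, 269 and 310 at E70, at least 6.41-fold higher (limma, adjusted p = 0.048). GNRH1, the gene of gonadotropin-releasing hormone, gave 4.83, 5.89 and 11.2 at E60 and 145, 132 and 97.2 at E70, at least 2.58-fold higher (adjusted p = 0.0167). TTR, transthyretin, which carries thyroid hormone and retinol, was at least 1.13-fold higher, CKMT1A, a mitochondrial creatine kinase, at least 2.83-fold, GSTA1, a glutathione transferase, at least 2.20-fold and HIP1R, an endocytosis protein, at least 1.70-fold. GAL, the gene of the neuropeptide galanin, gave 53.2, 49.6 and 65.8 at E60 and 188, 157 and 145 at E70 (log2 difference 1.54, adjusted p = 0.0332), and SNAP91, a protein of synaptic vesicle recycling, 87.0, 38 and 54.9 at E60 and 558, 407 and 396 at E70 (2.98, adjusted p = 0.0314). SERPINA1, alpha-1 antitrypsin, gave 51.3, 48.9 and 72.7 at E60 and 377, 341 and 375 at E70 (2.68, adjusted p = 0.0117). In the other direction OPRM1, the mu opioid receptor, gave 117, 104 and 117 at E60 and was below background at E70, at least 2.41-fold lower (adjusted p = 0.0262). Without 1 array these calls were lost in 4 or more of the 6 fits, with adjusted p up to 0.153 for TRH and 0.149 for CKMT1A.

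Called probe sets with no symbol, 236 of the 420, held larger differences than any called gene with a symbol. Of those above background on all arrays of their brighter stage, the largest fall was from 4265, 3464 and 4410 at E60 to 6.30, 1.11 and 1.81 at E70 (at least 86.4-fold, adjusted p = 0.00678), and the largest rise was from 2.89, 1.03 and 13.1 to 702, 526 and 730 (at least 13.6-fold, adjusted p = 0.0361). They are unnamed here. For called genes, 51 of their 61 other probe sets had the same sign. OAZ1, the inhibitor of polyamine synthesis, gave 34925, 32340 and 33838 at E60 and 9370, 5867 and 8024 at E70 on its brightest probe set (-2.15, adjusted p = 0.0206), while its other probe set gave 9964 to 10510 at E60 and 9300 to 12360 at E70 (0.03, adjusted p = 0.945).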
